A study of Caenorhabditis elegans with 2 samples.

Results

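The microRNA (miRNA) genes of Caenorhabditis elegans were examined in a map of the intestinal transcription factor ELT-2 in late embryos. The map came from chromatin immunoprecipitation with sequencing (ChIP-seq). The members were all 261 nuclear genes with the biotype miRNA in the Ensembl annotation of the WBcel235 assembly, of 46926 annotated genes of every biotype. The rule uses the annotation and no ChIP value, and each of the 261 matched a gene symbol of RefSeq. Embryos were hermaphrodites of the strain OP56, genotype unc-119(ed3) III; wgIs56, collected 4 hours after synchronization by bleaching. Through the transgene wgIs56 the worms make ELT-2 fused at its C terminus to GFP-FLAG, and an antibody to GFP pulled the fusion down. Both libraries, biological replicates 1 and 2, belong to this 1 group, and no untagged or control library was analysed here. The genotype lists no change at the elt-2 locus itself, and whole embryos were used, so a peak cannot be assigned to a cell type. The labels call the replicates biological and say no more of their cultures.

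miRNAs are cut from hairpins in longer primary transcripts, and a mature strand from 1 arm of the hairpin guides an Argonaute protein to messenger RNAs. Pairing rests mainly on the seed, bases 2 to 8 of the mature strand, so genes with the same seed form a family with overlapping targets. ELT-2, a zinc finger factor of the GATA class, drives gene expression in the worm intestine and binds sites with the core TGATAA. Most worm miRNA genes have no annotated primary transcript, so the 5′ end of the annotated gene, usually the hairpin, stood in for the start of transcription.

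The mature strands below belong to the genes whose peaks are described most closely. They were read from the WBcel235 genome at the annotated positions, with U for T, 5′ to 3′, and capitals mark the seed. Seeds are the same within mir-51 to mir-54, within mir-35 and mir-36, and within mir-238 and both mir-239 genes, whereas mir-60, mir-62, mir-243 and mir-786 each have their own among the strands shown.
mir-60, 3p arm: uAUUAUGCacauuuucuaguuca
mir-786, 3p arm: uAAUGCCCugaaugauguucaau
mir-240, 3p arm: uACUGGCCcccaaaucuucgcu
mir-51, 5p arm: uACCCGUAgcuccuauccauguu
mir-52, 5p arm: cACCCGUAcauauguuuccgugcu
mir-53, 5p arm: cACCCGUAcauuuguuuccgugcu
mir-54, 3p arm: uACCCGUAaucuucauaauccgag
mir-35, 3p arm: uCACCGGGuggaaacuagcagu
mir-36, 3p arm: uCACCGGGugaaaauucgcaug
let-7, 5p arm: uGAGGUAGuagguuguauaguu
mir-58.1, 3p arm: uGAGAUCGuucaguacggcaau
mir-62, 3p arm: uGAUAUGUaaucuagcuuacag
mir-243, 3p arm: cGGUACGAucgcggcgggauauc
mir-238, 3p arm: uUUGUACUccgaugccauucaga
mir-239.1, 5p arm: uUUGUACUacacauagguacugg
mir-239.2, 5p arm: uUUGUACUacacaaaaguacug

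The DNA at 6 summits is given to show peaks with and without the ELT-2 site. They are the 3 strongest peaks of miRNA genes with TGATAA and the 3 strongest without it, 50 bp to either side of the summit, on the strand of the miRNA gene. Capitals mark TGATAA or its reverse complement TTATCA, and in the mir-51 peak the word GGTTCGA.
mir-60, chrII:6328825-6328925, minus strand: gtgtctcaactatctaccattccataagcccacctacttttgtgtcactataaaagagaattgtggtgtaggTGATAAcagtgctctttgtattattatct
mir-62, chrX:12691438-12691538, plus strand: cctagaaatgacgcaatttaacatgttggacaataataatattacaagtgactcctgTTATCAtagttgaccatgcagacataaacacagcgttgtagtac
mir-243, chrIV:4449977-4450077, plus strand: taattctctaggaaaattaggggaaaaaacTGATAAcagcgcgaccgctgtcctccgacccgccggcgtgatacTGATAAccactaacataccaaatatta
mir-51, chrIV:11026131-11026231, minus strand: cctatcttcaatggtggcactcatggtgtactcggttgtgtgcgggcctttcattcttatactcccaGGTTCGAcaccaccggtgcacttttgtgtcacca
mir-52, chrIV:14033936-14034036, plus strand: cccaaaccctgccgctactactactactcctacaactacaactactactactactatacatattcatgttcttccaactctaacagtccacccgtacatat
let-7, chrX:14747112-14747212, minus strand: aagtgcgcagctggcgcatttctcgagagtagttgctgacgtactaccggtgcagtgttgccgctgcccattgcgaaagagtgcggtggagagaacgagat

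The values are peak lists in ce11 coordinates, which is the same assembly as WBcel235. Lists for replicate 1 (25770 entries), replicate 2 (25986) and the pooled replicates (30000) hold peaks together with background, and a thresholded list keeps 4098 peaks of the pool, selected by irreproducible discovery rate (IDR). Each entry has a signal, the authors' own value on a scale that is not given in the sources used here, and a rank by signal within its list. Signals of different lists are not on a common scale: the pooled value is often near the sum of the replicate values, as at mir-60, but not at every peak. Read depth is unknown. With 1 group and 2 replicates no test was made, and counts, levels and ranks are descriptions. Replicate agreement entered the thresholding, so finding a thresholded peak in both replicates is not independent evidence.

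Of the 261 miRNA genes, 57 (21.8%) had a thresholded ELT-2 summit between 2000 bp upstream and 200 bp downstream of the 5′ end. The same window of the 19973 nuclear protein-coding genes held one in 16.3%. With 1000 bp upstream and 200 bp downstream the count was 36 miRNA genes (13.8%), against 12.5% of protein-coding genes. With 500 bp upstream and 100 bp downstream it was 27 (10.3%), against 9.67%. The shares lay nearer each other in the narrower windows, and miRNA genes as a class were close to the background there. At 21 of the 57 genes (36.8%) the nearest summit was more than 1000 bp upstream, compared with 23.4% of the protein-coding genes with a summit, and the median positions were 681 bp and 311 bp upstream. Genes that share a summit count separately here, among them mir-35 to mir-38 within the 21.

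**Figure D1:**
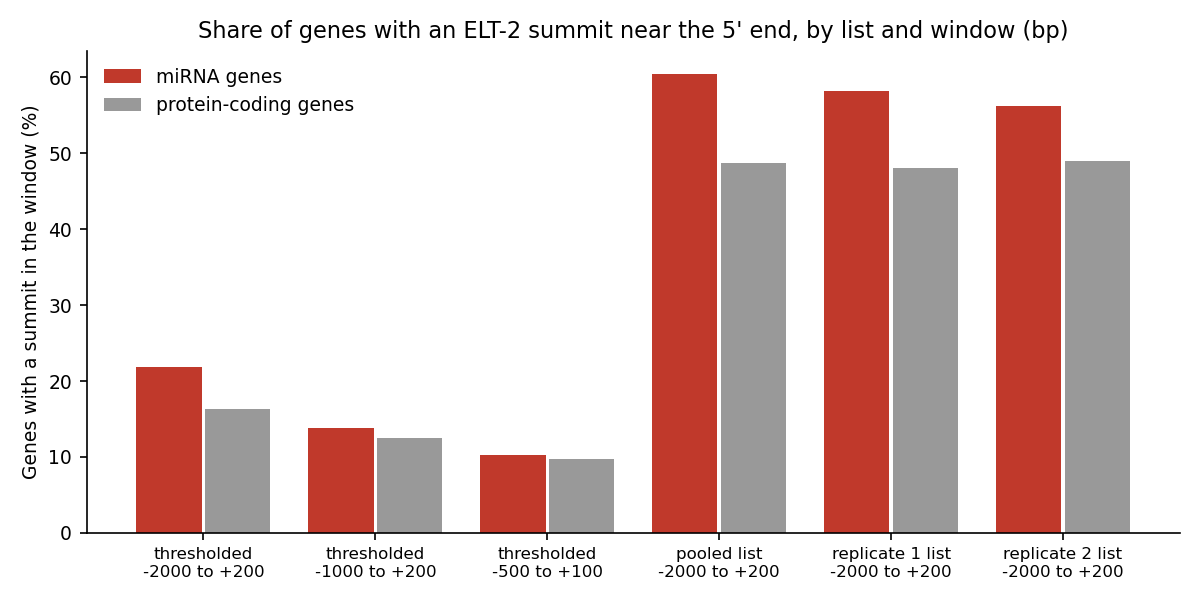
Bars give the percent of 261 miRNA genes and 19973 protein-coding genes with a summit in the window named under each pair, for the thresholded list and for the lists that include background. The gap of 21.8% against 16.3% in the widest window shrinks to 10.3% against 9.67% in the narrowest.

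The weaker lists reached more of the genes. The pooled list had an entry in the window of 158 miRNA genes (60.5%), against 48.7% of protein-coding genes. In the list of replicate 1 it was 152 of 261 (against 48.1%), and in that of replicate 2 it was 147 (56.3%, against 49%). Of the 204 genes without a thresholded summit, 101 had a pooled entry below the threshold, and 62 of these also had entries in both replicate lists. No entry of any list lay in the window of 83 genes. The members just inside the threshold were mir-236 with a pooled signal of 68.6 and mir-2218.1 with 68.5. Those just outside were mir-270 with 62.9 and mir-2218.2 with 62.7.

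The 57 genes shared 59 distinct peaks, and 7 of these served several genes. The median signal was 98.7 (range 68.5 to 443), compared with 108 (67.6 to 1740) over all thresholded peaks. Of the 59 peaks, 24 (40.7%) ranked in the upper 50% of the thresholded list. A single gene, mir-51, had a peak among the 100 strongest of the genome, and mir-60 and mir-52 followed within the first 200. Each of these 3 summits lay within 100 bp upstream of the hairpin, as did those of 4 other genes, mir-5549, mir-63, mir-53 and mir-4932.

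**Figure D2:**
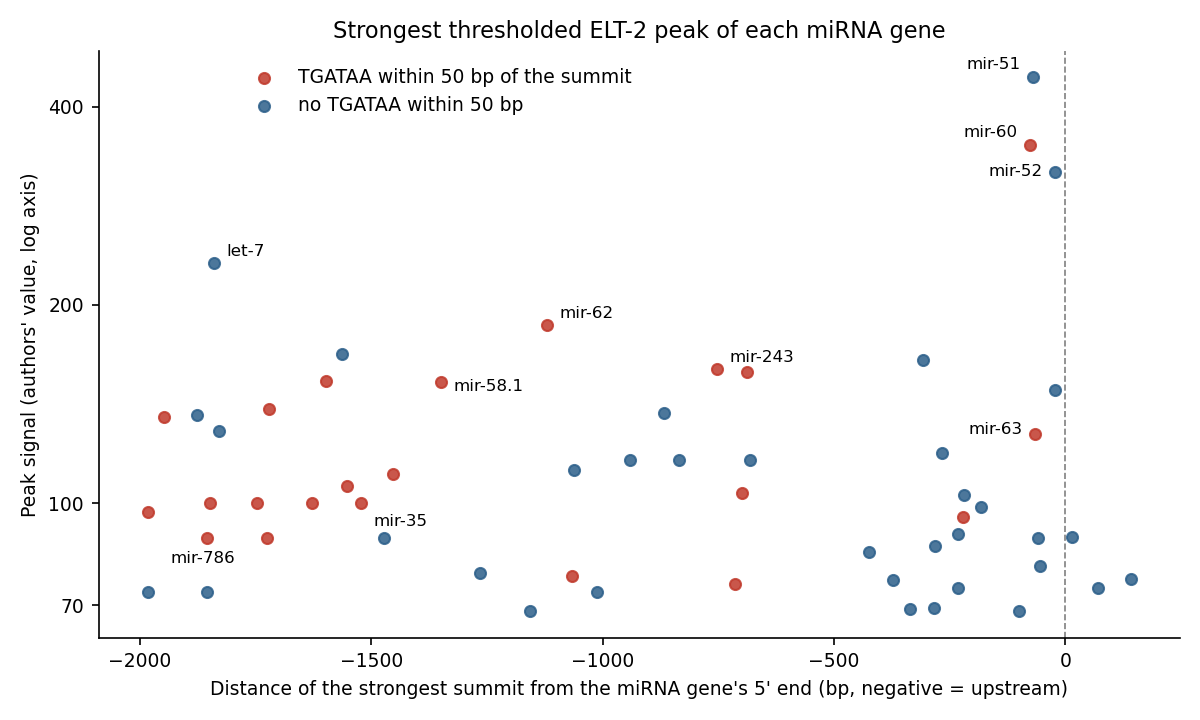
Each point is 1 of the 57 miRNA genes with a thresholded summit, placed by the distance of its strongest summit from the 5′ end in bp and by the pooled signal on a log axis; red points have TGATAA within 50 bp of the summit. The 3 strongest, mir-51, mir-60 and mir-52, stand next to the 5′ end with signals from 319 to 443.

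All 3 miRNA genes listed for the intestine, from 2 loci, had a thresholded peak with TGATAA. Of all 261 miRNA genes 57 (21.8%) had a thresholded summit, and 19 of their 59 peaks (32.2%) had TGATAA. The first of the 3 listed genes, mir-60, is expressed in the intestine. Its peak, with the summit at position 6328875 of chromosome II and 76 bp upstream of the hairpin, had a pooled signal of 349, rank 122. The signal was 196 in replicate 1 (rank 103) and 154 in replicate 2 (rank 157), high in both lists. It lay in no protein-coding promoter window, defined as 1000 bp upstream to 200 bp downstream of a transcript's 5′ end. The other members, mir-240 and mir-786, lie side by side on chromosome X, and mir-786 acts in the posterior intestine in the defecation rhythm. They shared 1 weaker peak, 1725 bp upstream of mir-240 and 1854 bp upstream of mir-786, with a pooled signal of 88.4. Its ranks were 4209 in replicate 1 (signal 37.5) and 2278 in replicate 2 (signal 49.5), so it was outside the strongest 4098 of replicate 1. That summit was also in the promoter window of C39D10.8. The list has 2 loci, so its count describes these genes alone.

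The mir-51 family held the strongest peak of all miRNA genes and no TGATAA at any summit in its windows. Its members are relatives of the animal miR-100 family and act redundantly in embryonic development. At mir-51 the main summit lay 69 bp upstream of the hairpin, on chromosome IV, with a pooled signal of 443 (rank 52). It had a signal of 245 in replicate 1 (rank 46) and 201 in replicate 2 (rank 67). At mir-52, elsewhere on chromosome IV, 3 summits were listed, the strongest 22 bp upstream with a pooled signal of 319 (rank 183), 172 in replicate 1 and 146 in replicate 2. The other summits of mir-52 had signals of 110 and 81.5. At mir-53 the summit was 54 bp upstream, with a signal of 80.1 in the pool, 43.1 in replicate 1 and 39.8 in replicate 2, and this peak was also the second summit of the mir-51 window. The 3 members on chromosome X, mir-54, mir-55 and mir-56, had no thresholded summit in their windows. They shared a pooled entry of 59.7 (rank 4779). The strongest entries in their windows ranked 10903 in replicate 1 and 1759 in replicate 2, and were not matched to the pooled entry by position. Thresholded summits were thus present in the windows of the 3 genes on chromosome IV and absent from those of the cluster on X. A thresholded peak with a signal of 76.5 did lie next to that cluster, 330 bp downstream of the 5′ end of mir-56 and 637 bp downstream of that of mir-54, beyond the window. It counted for F09A5.15, named mir-55b by Ensembl, whose gene lies there on the other strand.

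The word GGTTCGA in the mir-51 peak resembles the core of the internal promoter of tRNA genes. It was searched on both strands within 50 bp of each summit after the sequence had been seen. It was found at 81 of 239 nuclear thresholded peaks within 200 bp of an annotated tRNA gene (33.9%) and at 20 of the other 3837 (0.521%). Among the 59 peaks of miRNA genes it was present at 3, those of mir-51, mir-235 and mir-8186.2. The mir-235 summit was within 200 bp of a tRNA gene, as was that of mir-1829.3, whereas the mir-51 and mir-8186.2 summits were not near an annotated one.

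The mir-35 family, needed for embryonic viability, was covered through a single peak far upstream. mir-35 to mir-41 form a cluster of 7 hairpins on chromosome II, in an intron of Y62F5A.9 on the opposite strand. A thresholded summit with TGATAA lay 1523 bp upstream of mir-35, with a pooled signal of 100.2 (rank 2320), 52.3 in replicate 1 and 50.1 in replicate 2. The 2000 bp window took it in for mir-35, mir-36, mir-37 and mir-38, and it fell 2004 bp upstream of mir-39, just outside. The count of 4 of 8 family members is thus a count of 1 peak. The strongest pooled entry in the windows of mir-39, mir-40 and mir-41 had a signal of 40.3. The strongest entries there were 17.6 in replicate 1 and 36.6 in replicate 2. They were not matched to the pooled entry by position. The eighth member, mir-42, has its own locus on chromosome II and had an entry of 41.8 in the pool, below the threshold.

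Of 6 genes of developmental timing, let-7 alone had a thresholded summit in its window. The genes let-7, mir-48, mir-84 and mir-241 share the seed GAGGUAG, lin-4 and mir-237 form another family, and both families time larval cell fates. The let-7 gene is one of few with an annotated primary transcript, from 14743590 to 14745321 of chromosome X on the minus strand. Its peak had a summit 1841 bp upstream of that transcript and 2891 bp upstream of the hairpin, with a signal of 232 in the pool, 121 in replicate 1 and 105 in replicate 2. It had no TGATAA and also lay in the promoter window of wshc-2. Nearer the hairpin, 505 bp downstream of the annotated gene's 5′ end and 545 bp upstream of the hairpin, was a peak with TGATAA at the lower edge of the list. That peak had a signal of 67.9 (rank 4077), with 38.5 in replicate 1 and 29.5 in replicate 2, and it fell outside the window as defined. For mir-237 there was a pooled entry of 45.3, below the threshold. The windows of lin-4, mir-48, mir-84 and mir-241 had no pooled entry, and their nearest thresholded summits were 10115 bp downstream and 58975, 19527 and 57201 bp upstream.

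In the bantam-like family 1 of 5 genes had a thresholded peak. mir-58.1, an abundant miRNA within phkb-1, had a summit with TGATAA 1350 bp upstream, with a signal of 153 in the pool, 63.6 in replicate 1 and 87.1 in replicate 2. A second summit in its window had a signal of 68.6, with 64.7 in replicate 1 (rank 1763) and 16.3 in replicate 2 (rank 12682). The strongest pooled entries of mir-58.2, mir-80, mir-81 and mir-82 were 22.1, 18.2, 29.0 and 39.2, all below the threshold.

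The 3 genes listed for muscle and neurons had no thresholded summit, as did 204 of all 261 miRNA genes. The muscle gene mir-1 had a pooled entry of 42.1. The strongest replicate 1 entry in its window had a signal of 35.8 and was not matched to the pooled one. Replicate 2 had none in the window. lsy-6, which sets left-right asymmetry of a pair of taste neurons, had a pooled entry of 24.0. mir-124, a gene of sensory neurons, had no pooled entry, though replicate 1 alone listed one with a signal of 39.1. Among the remaining genes fixed by name, mir-62, mir-79 and mir-83 had thresholded summits, and mir-71 (49.4), mir-57 (60.0), mir-228 (27.5) and mir-34 (26.6) had weaker pooled entries.

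**Figure D3:**
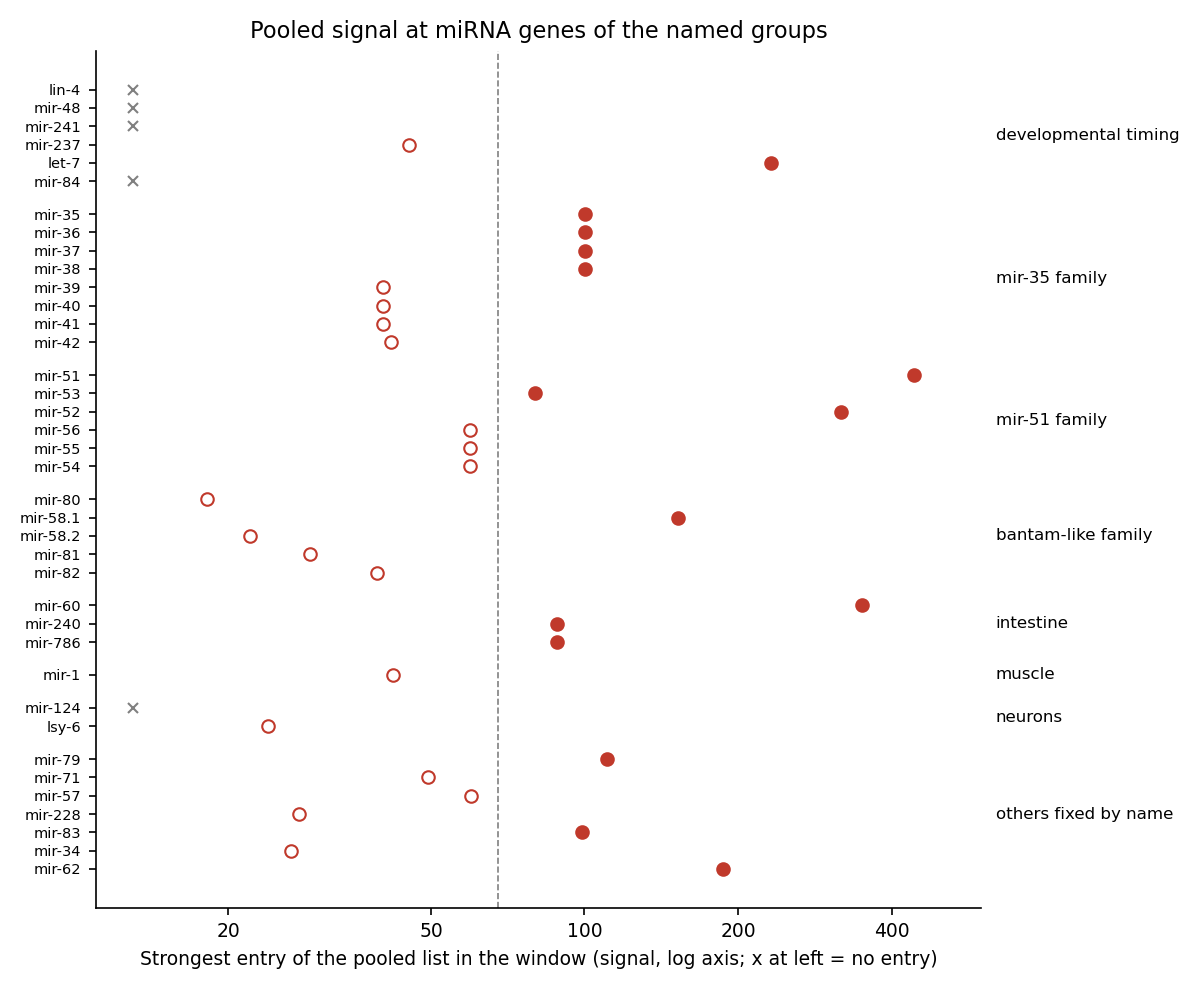
For each miRNA gene of the named groups the point gives the strongest pooled entry in the window on a log axis, filled where a thresholded summit was present; crosses mark genes with no pooled entry and the dashed line is the lowest thresholded signal, 67.6. The 3 intestinal genes, from 2 loci, lie at 88.4 and 349; of all 261 miRNA genes 21.8% had a thresholded summit.

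Some summits near hosted miRNA genes lay in the promoter window of the host. Of 74 miRNA genes inside a protein-coding gene on the same strand, 21 (28.4%) had a thresholded summit in the window, compared with 26 of 152 intergenic miRNA genes (17.1%) and 8 of 32 on the strand opposite to a host (25%). The remaining 2 were among 3 genes that partly overlap a protein-coding gene. These counts take clustered genes as separate. The 8 include mir-35 to mir-38, which share a single peak, and the 21 include mir-229 and neighbours that share a peak with it. At 12 of the 21 the strongest summit lay in the promoter window of the host itself. An example is mir-62, an intronic miRNA of the glucuronosyltransferase gene ugt-50. Its summit was 1120 bp upstream of mir-62 and in the ugt-50 promoter window, with TGATAA and a signal of 187 in the pool, 72.9 in replicate 1 and 114.9 in replicate 2. Other hosts of this kind were paic-1 (mir-1830, signal 158), rps-20 (mir-354, 137), rpl-24 (mir-353, 112) and gmps-1 (mir-2216, 129). At these loci the peak cannot be assigned to the host or to the miRNA. In contrast, mir-243, whose product is bound by the Argonaute RDE-1, lies in an intron of R08C7.12, and its summit 752 bp upstream was in no promoter window. It had a signal of 160 in the pool, 95.5 in replicate 1 and 65.0 in replicate 2, and TGATAA occurred at 2 places.

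Of the 26 intergenic genes with a summit, 17 had their strongest one outside every protein-coding promoter window. These were 16 distinct summits, 8 of them with TGATAA. The 8 included those of mir-60 and of mir-75, a gene with 2 summits that had the site and signals of 153 and 131. The stronger mir-75 summit stood at 94.8 in replicate 1 and 65.6 in replicate 2. At mir-63 the stronger of 2 summits lay 66 bp upstream with TGATAA and a signal of 128. That peak stood at 62.1 in replicate 1 (rank 1895) and 64.7 in replicate 2 (rank 1399). At mir-49, 3 summits of 91.7 to 135 were listed, and the strongest, 1947 bp upstream, had the site. For mir-79, a relative of the animal miR-9 family, the summit was 1454 bp upstream with a signal of 111 and the site. The mir-83 summit, 182 bp upstream of this relative of the miR-29 family, had a signal of 98.7 (45.6 in replicate 1, 51.2 in replicate 2) and no site.

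Of the other genes among the 20 strongest, 4 had a summit without TGATAA in a protein-coding promoter window. They were mir-59 with a signal of 169 (znf-207), mir-4929 with 165 (its host E01G4.3), mir-5549 with 149 (eef-1A.1 and rfc-4) and mir-4920 with 119 (its host sph-1). In replicates 1 and 2 the mir-59 peak had signals of 81.5 and 79.1, and the mir-5549 peak 62.6 and 87.8. The neighbours mir-2212 and mir-1819 on chromosome X shared 1 weak summit without the site, with a signal of 73.3 in the pool, 47.3 in replicate 1 and 25.6 in replicate 2. In the cluster of mir-1829.3 and F39B1.3, within piki-1, mir-1829.3 had a summit 141 bp downstream of its 5′ end with a signal of 76.6. F39B1.3 had no entry in any list.

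TGATAA was present at a minority of the peaks of miRNA genes. The word, searched on both strands, lay within 50 bp of 19 of 59 summits (32.2%, 95% exact Clopper-Pearson interval 20.6 to 45.6%). Of the 4076 nuclear thresholded peaks it marked 43.7%, which is within that interval. In the window of 1000 bp upstream to 200 bp downstream the share was lower, 8 of 36 peaks (22.2%), and no interval was computed for it. Among the 24 peaks in the upper 50% of ranks 11 had it (45.8%), against 50.8% of all nuclear peaks there, and among the other 35 it was 8 (22.9%), against 36.7%. Outside protein-coding promoter windows the share was 13 of 32 (40.6%, against 50.8% of all such peaks), and inside them 6 of 27 (22.2%, against 38.4%). The related word AGATAA, searched after the first results, was found at 5 of the 59 summits (8.47%) and at 16.6% of nuclear peaks. The intervals cover counting error only.

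Seeds were shared by 3 or more genes in 16 groups, of which 9 had at least 1 gene with a thresholded summit. In 2 groups every gene had one, compared with 57 of all 261 miRNA genes (21.8%). Genes of a group can share a summit, so these counts are not of separate loci. Among the 2 groups with a summit at every gene was the seed UUGUACU of mir-238, mir-239.1 and mir-239.2, which have been linked to lifespan and stress. The neighbours mir-239.1 and mir-239.2 lie on opposite strands and shared a summit with TGATAA and a signal of 75.2. In the mir-239.2 window was another with a signal of 106, 1552 bp upstream of that gene. It lay 506 bp downstream of the 5′ end of mir-239.1, beyond that gene's window. The mir-238 summit had a signal of 77.5, also with the site. The gene mir-229, in an intron of gcn-1 on chromosome III, had 3 summits in its window. The strongest lay 1721 bp upstream with TGATAA at 3 places and a signal of 139 in the pool, 72.6 in replicate 1 and 67.0 in replicate 2. The others had no TGATAA, with pooled signals of 116 (285 bp upstream, 74.0 in replicate 1 and 69.1 in replicate 2) and 96.5, and both also lay in windows of neighbouring miRNA genes. The seed GAGAUCA of mir-58.2, mir-80, mir-81, mir-82, mir-2209.1 and Y73B6A.17, and the seed GGCAAGA of mir-72, mir-73, mir-74, mir-266, mir-8187 and mir-8188, had no gene with a thresholded summit. Over all genes, 5 of 18 clusters with gaps of at most 1000 bp had a summit at 1 or more members, and 44 of 209 single genes (21.1%) had one. Counted by cluster or single gene, 49 of 227 units (21.6%) had a summit.

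By chromosome, none of the 28 miRNA genes on chromosome V had a thresholded summit, which allows a share of up to 10.7% by an approximate limit of 3 counts. The upper bound of the exact 95% Clopper-Pearson interval was 12.3%. The 11.9% of protein-coding genes there lay between these limits, which therefore do not set the miRNA genes apart from them. Both limits take neighbouring miRNA genes as separate. The shares on the other chromosomes were 27.3% on I, 28.6% on II, 33.3% on III, 20% on IV and 20.3% on X. For protein-coding genes they were 19.1%, 16.1%, 21.8%, 14.8% and 17.9%. The miRNA shares also take clustered genes as separate, such as mir-35 to mir-38 on II and mir-229 with its neighbours on III.

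All 59 peaks overlapped an entry in each replicate list, and 43 (72.9%) overlapped one among the 4098 strongest of both, compared with 76.4% of all thresholded peaks. At mir-52, mir-49, mir-229 and mir-8192, neighbouring summits overlapped the same replicate entries, so their replicate values are not separate. Across the 59 peaks the log2 ratio of replicate 1 to replicate 2 had a median of 0.12 and an SD of 0.59, and across all thresholded peaks a median of 0.19 and an SD of 0.47. All 20 genes with the strongest peaks were among the 4098 strongest of both lists. At the weak end mir-2218.1 had a signal of 55.4 in replicate 1 (rank 2299) and 12.2 in replicate 2 (rank 20412). The mir-8201 peak stood at 59.8 and 20.6, and the mir-2 peak in the opposite order at 22.9 and 47.4. Together with the second mir-58.1 summit, these peaks stood high in 1 replicate and low in the other.

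**Figure D4:**
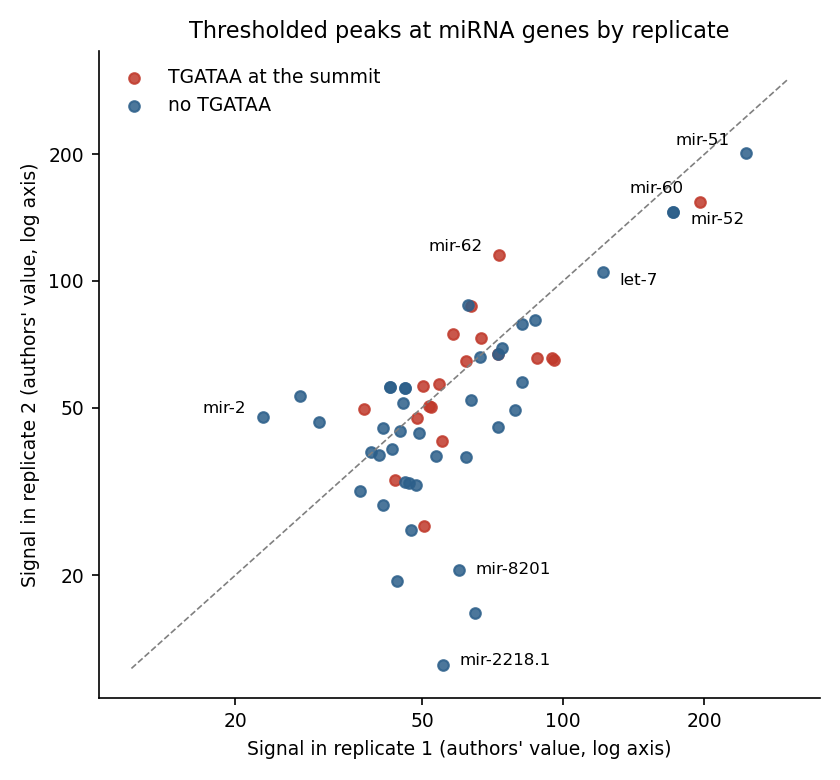
Each point is 1 of the 59 thresholded peaks in miRNA windows, with the signal of its match in replicate 1 and in replicate 2 on log axes. The dashed line marks equal values and is a guide for the eye only, as the replicate lists are not on a common scale. The peaks of mir-51, mir-60, mir-52 and let-7 are strong in both, while mir-2218.1, mir-8201 and mir-2 lie away from the line.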

How the data were processed

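ChIP-seq peaks of tagged ELT-2 from 2 replicates were read from 4 deposited ce11 narrowPeak lists. Per the labels and the deposited file names, the authors called peaks for each replicate and for the pool and thresholded the pool with IDR. The aligner and caller, like the IDR threshold, were not given in the sources used here. The peak signal and the −log10 q-value are the authors' deposited values, and the −log10 q-values were not printed. ce10 lists were not used here. Summits were placed against the Ensembl annotation of release 115, with symbols from RefSeq matched by WormBase identifier and sequences from the RefSeq WBcel235 genome. Coordinates are 1-based. A peak was matched to the strongest replicate entry overlapping it by at least 1 bp. Analysis used Python 3.11.15, pandas 2.3.3 and scipy 1.17.1, and the window and motif steps were tested on simulated data. Genes named were the 20 with the strongest summit, all members of clusters with a summit, and 38 fixed by name, and others at the threshold or singled out were chosen after their values were seen. Members and lists were chosen with earlier results of these data known. Alternatives were other windows, peak overlap, the upper 50% of peaks, each replicate alone, host 5′ ends, other cluster gaps and leaving out tRNA or promoter peaks. Some mature sequences, some genes under the naming rule and the other seed group with a summit at every gene are not reported here.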

Additional observations from a re-analysis of the deposited data

How the results depend on the processing

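The count of 57 miRNA genes depended on the window and the threshold. It was 36 with 1000 bp upstream and 200 bp downstream, 27 with 500 bp and 100 bp, 24 with the upper 50% of thresholded peaks and 31 without summits in protein-coding promoter windows. It stayed within 1.5 times, from 54 to 66, under the other alternatives run. For each replicate's own 4098 strongest peaks it was 54 without replicate 2, 52 of them among the 57, and 58 without replicate 1, 45 of them among the 57. With the hairpin's 5′ end, an alternative chosen after seeing the data, it was 57, the same genes, with let-7 through its other peak. With host 5′ ends it was 61, of which 50 were among the 57. The share of protein-coding genes was 12.5% and 9.67% in the narrower windows, 17.1% with peak overlap, 8.46% with the upper 50% of thresholded peaks, and 16.2 to 16.3% with 1 replicate. The share of peaks with TGATAA was 18.6% within 25 bp and 16.9% for TGATAAG, against 28% and 26.2% of nuclear peaks. It was 22.2% for peaks in the window of 1000 bp upstream and 200 bp downstream, compared with 32.2% in the main window. Matching each peak to the replicate entry with the nearest summit, tried first, put 67.8% of miRNA peaks and 73.1% of all peaks among the strongest of both replicates. The strongest entry (72.9% and 76.4%) was adopted after both values were seen. No paired analysis was possible because there is 1 group. Depth is unknown, so a missing peak is not evidence that ELT-2 is absent.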
